A study of Mus musculus with 6 samples.

Results

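The immunoglobulin genes were followed in mouse 344SQ tumours that had been separated by flow cytometry on CD133, the surface glycoprotein encoded by Prom1. The members are the probe sets whose platform annotation names Igk, Ighm, Ighd or Igha, or a symbol that begins with Ighg, Ighv, Igkc, Igkv, Iglc or Iglv. This rule found 55 of 45037 probe sets, of which 23 belong to the heavy chain locus, 28 to the kappa locus and 4 to the lambda locus. Together they name 27 genes or segments. No probe set carried Ighd or a gamma isotype other than Ighg3. For 13 of the 55 the annotation lists several immunoglobulin symbols, and 27 have names ending in _s_at, _x_at or _a_at, which mark probes that match more than 1 transcript. Members therefore share sequence and are not independent of each other, and the annotation does not say which part of a rearranged transcript a probe set reads.

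344SQ is a lung adenocarcinoma line from a mouse with the KrasLA1/+ and p53R172HdelG/+ alleles, and both fractions came from tumours it formed under the skin of syngeneic mice. The CD133 high and the CD133 low fraction were measured on 3 arrays each, 6 in all, and no drug or other treatment is named for either. The labels do not give the animal or the sort behind an array, so the p-values measure the spread between these arrays, which may be technical. The comparison of the fractions asks how the cells with much CD133 differ from the rest of the tumour.

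Antibodies are made by B cells and, in bulk, by plasma cells. A heavy chain gene is assembled from V, D and J segments upstream of a constant region that sets the isotype, mu for IgM, alpha for IgA and gamma for IgG, while a light chain joins V and J segments to a kappa or a lambda constant region. In the mouse the heavy chain locus lies on chromosome 12, the kappa locus on chromosome 6 and the lambda locus on chromosome 16. Carcinoma cells are not a usual source of such transcripts, and in a tumour they come chiefly from infiltrating lymphocytes.

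The labelled tumour cells and host leukocytes were both visible. The epithelial genes Cdh1, which encodes E-cadherin, and Epcam, an epithelial adhesion molecule, stood well above the array medians of 6.60 to 6.77 on all arrays. Their log2 values were 12.28 to 12.52 and 10.20 to 10.86. Not every epithelial gene did so: Grhl2 read 5.41 to 6.70, and Esrp1 was listed at 0 on all arrays but CD133 low replicate 2. Ptprc, which encodes the leukocyte antigen CD45, stood at 12.74 to 13.20. Prom1, the gene of the sorted antigen, was at 5.49, 5.92 and 6.06 in the CD133 low fraction against 6.80, 6.63 and 6.40 in the CD133 high fraction. It lay below the array median on every array but CD133 high replicate 1, whose median was 6.65. CD133 high replicates 2 and 3 stood apart in both technical readings made here. Their bacterial hybridisation controls averaged 11.29 and 11.04, against 10.19 to 10.51 on the other 4 arrays, and their Gapdh 3′ control minus the middle one gave 0.44 and 0.46, against −0.13 to −0.07 elsewhere. Results are therefore given for each CD133 high array as well.

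Most immunoglobulin probe sets were lower in the CD133 high fraction. By limma, 13 of the 55 fell at an adjusted p under 0.05, 8 in the heavy chain locus, 4 in the kappa locus and 1 in the lambda locus, and 0 rose. Over all probe sets 0.167% were called lower and 0.0155% higher. In 41 of the 55 every CD133 high array lay below every CD133 low array, against 10.5% of all probe sets, and in 1 every CD133 high array lay above, against 10.3%. At an unadjusted p under 0.05, 41 were lower, against 7.9% of all probe sets, and 0 higher, against 3502 of 45037. The median difference of the members was −2.77 on the log2 scale, beside 0.02 over all probe sets, and 32 of them were lower by more than 2, against 0.873% of all probe sets. In RNA of whole fractions, fewer B-lineage cells and less immunoglobulin RNA per cell cannot be told apart.

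The number of calls depended strongly on the arrays and on the variance model. Without CD133 high replicate 1, 41 of the 55 were called lower and 3 higher, beside 11.8% and 9.5% of all probe sets. Leaving out any other single array left 0 called, with 39 to 41 lower at an unadjusted p under 0.05 and a smallest adjusted p of 0.0941 to 0.212. A test without moderation also left 0 called in either direction, with 40 lower and 0 higher at an unadjusted p under 0.05. The loss was not particular to the members. Over all probe sets those fits without 1 array called 0 or 1 lower and 0 higher, and the test without moderation called 0 in either direction. The direction of the 13 called members was the same under every alternative tried.

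**Figure D1:**
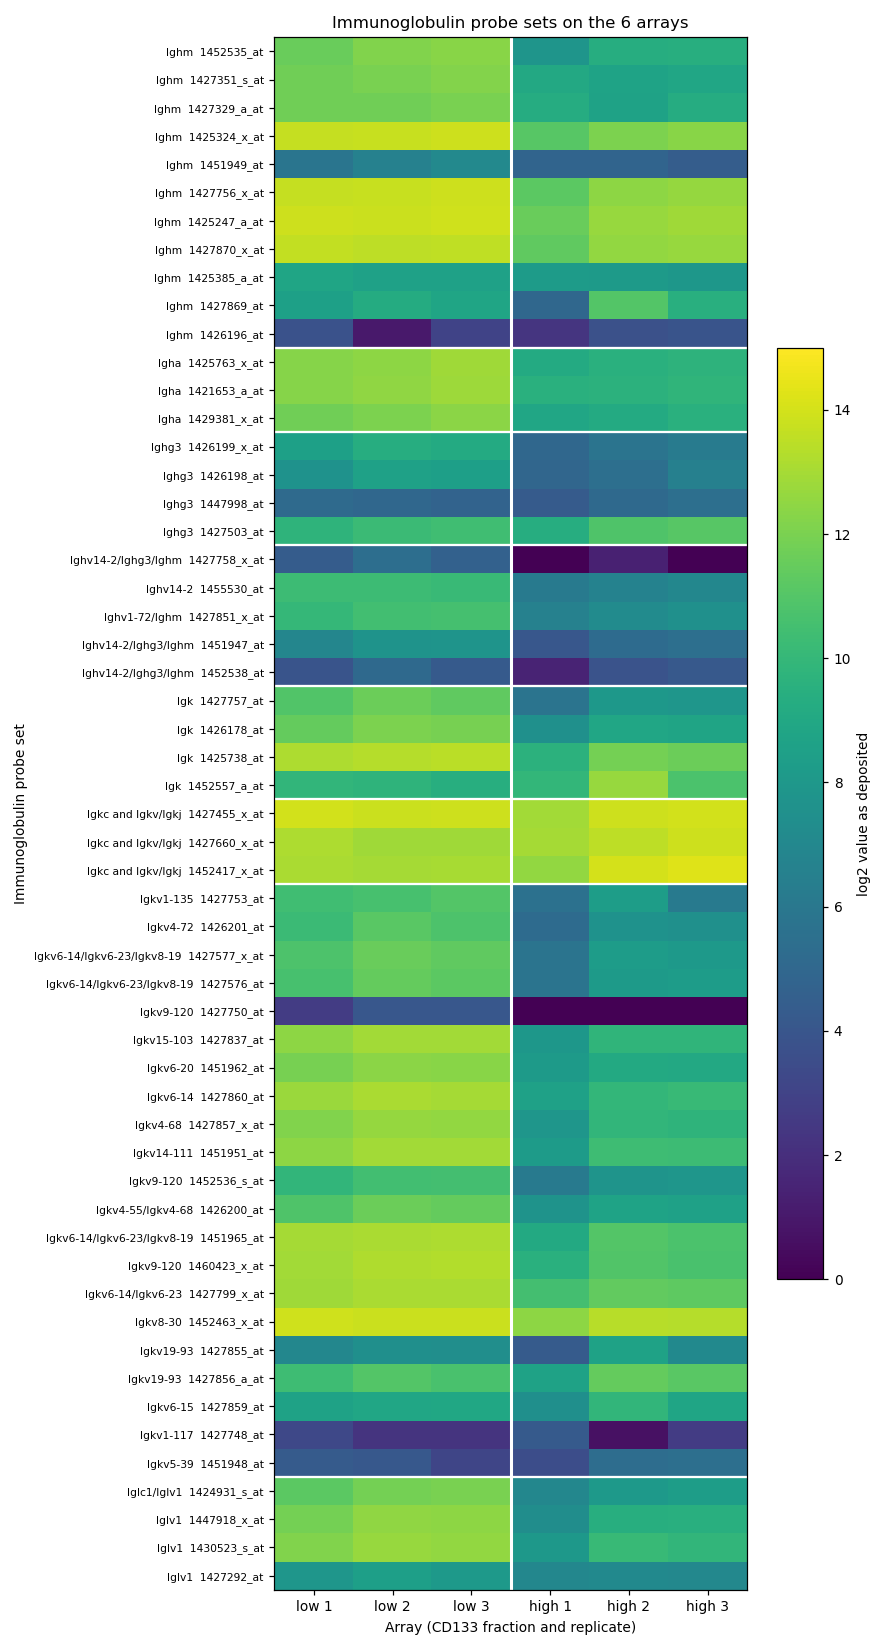
Log2 values as deposited (colour scale from 0 to 15) of the 55 immunoglobulin probe sets (rows, with symbols and probe set names, grouped by class) on the 3 CD133 low and 3 CD133 high arrays (columns). Most rows are lower (toward blue) on the CD133 high arrays and lowest on CD133 high replicate 1. The 3 probe sets that name Igkc read 12.58 to 14.26 over the CD133 high arrays.

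IgM is the first antibody class a B cell makes. Of 11 probe sets annotated to Ighm alone, 2 fell. Probe set 1427351_s_at read 11.74, 12.00 and 12.22 in the CD133 low fraction against 9.06, 8.68 and 8.91 in the CD133 high fraction, a difference of −3.10 (SE 0.18, limma adjusted p = 0.0114), or 8.60-fold lower. The other, 1427329_a_at, read 11.77, 11.73 and 11.98 against 9.26, 8.61 and 9.29 (difference −2.77, SE 0.22, adjusted p = 0.0186). In both, the groups were separated by more than 2 on the log2 scale and CD133 high replicate 2 was the lowest array.

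The brightest Ighm probe sets, 4 in number, lay within 1 of the highest value of each CD133 low array. Of these, 1425247_a_at read 13.86, 13.82 and 13.90 in the CD133 low fraction and 11.59, 12.68 and 12.84 in the CD133 high fraction, a difference of −1.49 ± 0.34 (SE) that did not pass (adjusted p = 0.228). The remaining members of that set, 1425324_x_at, 1427756_x_at and 1427870_x_at, had differences of −1.94, −1.67 and −1.34 (limma, adjusted p = 0.110, 0.223 and 0.279). On all of them CD133 high replicate 1 was the lowest array, and the groups did not overlap.

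The rest of the Ighm probe sets were divided. Probe set 1452535_at read 11.56, 12.16 and 12.32 against 7.81, 9.33 and 9.42, a difference of −3.16 (adjusted p = 0.0742) with a wide spread in the CD133 high fraction. Probe sets 1451949_at and 1425385_a_at had differences of −1.79 and −0.56 that did not pass (limma, adjusted p = 0.189 and 0.297), again with no overlap of the groups. In 1427869_at the values were 8.51, 9.23 and 8.83 against 5.03, 10.96 and 9.47, so CD133 high replicate 1 lay far below and the other CD133 high arrays above the CD133 low arrays. The dimmest, 1426196_at, stayed between 1.05 and 3.92 on all arrays, with overlapping groups.

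IgA, the main antibody class of mucosal surfaces, including the airway, gave the most uniform result. All 3 Igha probe sets fell. Their names end in _a_at or _x_at, so each may also match other transcripts, and no Igha probe set lacked such an ending. Probe set 1421653_a_at read 12.25, 12.50 and 12.81 in the CD133 low fraction against 9.50, 9.64 and 9.80 in the CD133 high fraction, that is 12.52 ± 0.281 against 9.65 ± 0.153 (SD, n = 3 arrays each). Its difference was −2.87 (SE 0.19, adjusted p = 0.0126), or 7.32-fold lower. For 1425763_x_at the values were 12.28, 12.47 and 12.84 against 9.19, 9.51 and 9.67 (difference −3.07, SE 0.21, adjusted p = 0.0129). For 1429381_x_at they were 11.72, 12.05 and 12.42 against 8.88, 9.20 and 9.50 (difference −2.87, SE 0.24, adjusted p = 0.0186). Against the CD133 low mean, the 3 CD133 high arrays had a median over these probe sets of −3.18, −2.88 and −2.72, a narrower spread between arrays than in any other class of members.

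IgG3 is an IgG subclass that mice make against carbohydrate antigens in particular. Of 4 probe sets annotated to Ighg3 alone, 1 fell. Probe set 1426199_x_at read 8.54, 9.37 and 9.19 against 5.02, 5.77 and 6.25 (difference −3.35, SE 0.37, limma adjusted p = 0.0365). Probe set 1426198_at read 7.65, 8.60 and 8.46 against 4.93, 5.49 and 6.56, a difference of −2.57 ± 0.46 (SE) that did not pass (adjusted p = 0.135). The remaining probe sets went another way. Probe set 1427503_at read 9.76, 10.24 and 10.39 against 9.33, 10.85 and 11.12, with overlapping groups and a difference of 0.30, and 1447998_at stayed between 4.31 and 5.46 (difference −0.01). Probe sets with the symbol Ighg3 therefore disagreed with each other, and no single value stands for the gene.

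Heavy chain V segments encode the antigen-binding end of the chain. Of 5 probe sets that name one, 2 fell. Ighv14-2 (1455530_at) read 10.28, 10.31 and 10.19 in the CD133 low fraction and 6.21, 6.68 and 6.95 in the CD133 high fraction, a difference of −3.65 (SE 0.21, adjusted p = 0.0114), or 12.6-fold lower. The probe set shared by Ighv1-72 and Ighm (1427851_x_at) read 10.01, 10.47 and 10.58 against 6.59, 7.23 and 7.51 (difference −3.24, SE 0.28, adjusted p = 0.0186). In both, CD133 high replicate 1 was the lowest array.

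The 3 dimmer probe sets are annotated to Ighv14-2, Ighg3 and Ighm together. Of these, 1427758_x_at read 4.39, 5.43 and 4.68 in the CD133 low fraction and was listed at 0 on CD133 high replicates 1 and 3 and at 1.35 on replicate 2 (adjusted p = 0.0558). A value of exactly 0 can be a failed estimate, so no fold is given for it. Probe set 1451947_at had a difference of −2.52 (adjusted p = 0.127), and 1452538_at one of −1.23 with overlapping groups (adjusted p = 0.436).

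**Figure D2:**
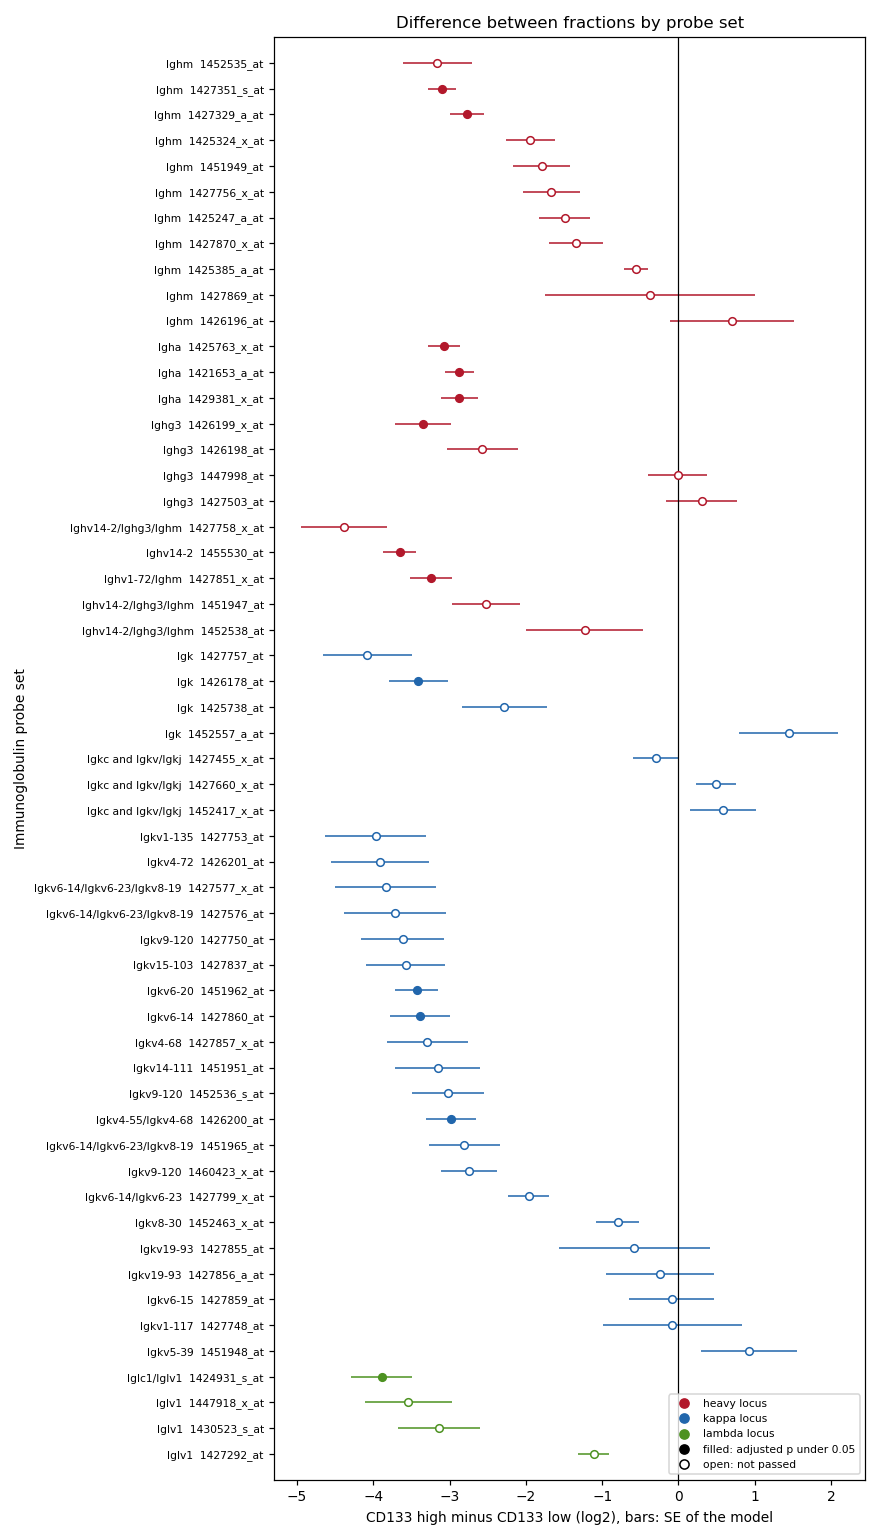
Difference between the fractions on the log2 scale, CD133 high minus CD133 low, for each of the 55 immunoglobulin probe sets, with the standard error of the limma model as a bar, coloured by locus. Filled points passed an adjusted p of 0.05. The 13 filled points lie between −3.89 and −2.77, and 6 of the 55 points lie above 0, all of them open.

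The kappa chain is carried by most mouse antibodies. Its constant region, Igkc, is named by 3 probe sets, each of which also lists Igkv6-23, Igkv4-53, Igkv8-30 and Igkj1, and 0 of them fell. Probe set 1427455_x_at read 13.97, 13.80 and 13.85 in the CD133 low fraction against 12.91, 13.86 and 13.96 in the CD133 high fraction. For 1427660_x_at the values were 13.16, 12.87 and 12.84 against 12.96, 13.52 and 13.86, and for 1452417_x_at they were 13.10, 12.98 and 13.05 against 12.58, 14.06 and 14.26. The groups overlapped in all 3, with differences of −0.30, 0.49 and 0.59 (limma, adjusted p = 0.625, 0.376 and 0.501). These probe sets read near the top of the scale. The highest value of any probe set was 14.11 on CD133 high replicate 2 and 14.29 on CD133 high replicate 3. How far this limited their differences was not tested.

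Without CD133 high replicate 1, 2 of these Igkc probe sets were called higher in the CD133 high fraction. They were 1452417_x_at with a difference of 1.11 (SE 0.12, limma adjusted p = 0.00523, and up to 0.894 under the other alternatives) and 1427660_x_at with 0.74 (SE 0.17, adjusted p = 0.0323, elsewhere up to 0.9997). The last member called higher in that comparison was Ighg3 1427503_at, at 0.85 (SE 0.21, adjusted p = 0.0405, elsewhere up to 0.982). Over all probe sets 9.5% were called higher there. When the hybridisation controls entered as covariate, 1452417_x_at and 1427503_at turned to −0.35 and −0.74, so these probe sets had no settled direction.

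The symbol of the kappa locus as a whole, Igk, is carried by 4 probe sets, and 1 of them fell. Probe set 1426178_at read 11.43, 12.03 and 11.93 against 7.50, 8.89 and 8.75 (difference −3.41, SE 0.39, adjusted p = 0.0373), or 10.7-fold lower. The lowest CD133 high array was again replicate 1. In 1427757_at the values were 10.92, 11.61 and 11.36 against 5.78, 8.02 and 7.86, a difference of −4.08 (SE 0.59) that did not pass (adjusted p = 0.0742). Probe set 1425738_at, near the top of the scale, had a difference of −2.28 (adjusted p = 0.259). The last of them, 1452557_a_at, ran the other way, at 9.89, 9.75 and 9.41 against 9.94, 12.71 and 10.74. Here all CD133 high arrays lay above the CD133 low arrays, and the difference of 1.44 (SE 0.65) did not pass (adjusted p = 0.332).

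Among 21 probe sets that name kappa V segments without Igkc, 3 fell, against 0.167% of all probe sets called lower. In 16 all CD133 high arrays lay below all CD133 low arrays, against 10.5% of all probe sets. The median difference of the 21 was −3.02. Igkv6-20 (1451962_at) read 11.95, 12.38 and 12.30 in the CD133 low fraction and 8.16, 9.11 and 9.05 in the CD133 high fraction (difference −3.43, SE 0.28, limma adjusted p = 0.0186). Igkv6-14 (1427860_at) read 12.73, 13.10 and 12.99 against 8.61, 9.96 and 10.10 (difference −3.38, SE 0.39, adjusted p = 0.0408). The probe set shared by Igkv4-55 and Igkv4-68 (1426200_at) read 10.85, 11.62 and 11.47 against 7.69, 8.73 and 8.59 (difference −2.98, SE 0.33, adjusted p = 0.0366). Against the CD133 low mean, replicate 1 was lowest in each, at −4.05, −4.33 and −3.63 in that order, and the highest of their CD133 high arrays was at −2.59.

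Several kappa segments had differences as large or larger and did not pass, with CD133 high arrays that spread more widely. Igkv1-135 (1427753_at) read 10.41, 10.65 and 10.98 against 5.62, 8.35 and 6.15 (difference −3.97, SE 0.67, adjusted p = 0.116). Igkv4-72 (1426201_at) read 10.23, 11.14 and 10.82 against 5.26, 7.64 and 7.56 (difference −3.91, SE 0.64, adjusted p = 0.110). Igkv15-103 (1427837_at) read 12.47, 12.90 and 12.94 against 7.93, 9.81 and 9.84 (difference −3.58, SE 0.51, adjusted p = 0.0742). In these the groups did not overlap and CD133 high replicate 1 was the lowest array.

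The same held for Igkv4-68 (1427857_x_at, −3.29), Igkv14-111 (1451951_at, −3.16) and the 3 probe sets shared by Igkv6-14, Igkv6-23 and Igkv8-19 (−3.84, −3.71 and −2.81), with adjusted p of 0.103 to 0.135. Igkv9-120 differed by −2.75 (1460423_x_at) and −3.02 (1452536_s_at), with adjusted p of 0.0628 and 0.0927. Its remaining probe set, 1427750_at, read 2.69, 4.10 and 4.06 in the CD133 low fraction and was listed at 0 on all CD133 high arrays, so no fold is given. The probe set shared by Igkv6-14 and Igkv6-23 (1427799_x_at) had a difference of −1.97 (adjusted p = 0.063), and Igkv8-30 (1452463_x_at) read 13.92, 13.79 and 13.81 against 12.44, 13.39 and 13.30, a difference of −0.80 ± 0.28 (SE, adjusted p = 0.297).

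The groups overlapped in 5 kappa V probe sets. Both probe sets of Igkv19-93 had CD133 high replicate 1 well below and replicate 2 above the CD133 low arrays: 1427856_a_at read 10.33, 11.00 and 10.71 against 8.66, 11.48 and 11.16, and 1427855_at read 6.93, 7.45 and 7.41 against 4.31, 8.65 and 7.09. Igkv6-15 (1427859_at) read 8.66, 8.88 and 8.95 against 7.48, 9.88 and 8.85. The differences of Igkv19-93 were −0.24 and −0.58 and that of Igkv6-15 was −0.09, none of them past the threshold. Igkv5-39 and Igkv1-117 stayed at or below 5.48 on all arrays, with differences of 0.93 and −0.08.

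Probe sets named for segments that lie side by side on the chromosome could differ widely in this comparison. Counted outward from Igkc among 102 kappa V segments of the RefSeq gene table, Igkv6-14 is number 11 and Igkv6-15 number 12. The probe sets that name them alone had differences of −3.38 and −0.09. Shared probe sets that name Igkv6-14 had differences from −3.84 to −1.97. For Igkv6-15 the difference ran from −0.66 to 0.54 when 1 array was left out. Which part of a rearranged transcript these probe sets read is not known, so a pattern by position is not shown. Farther out, Igkv19-93 at number 74 had differences of −0.24 and −0.58, while Igkv4-72 at number 59 and Igkv15-103 at number 82 had −3.91 and −3.58. Igkv1-135 at number 101, among the farthest, had −3.97.

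Few mouse antibodies carry the lambda chain. Of 4 lambda probe sets 1 fell, that shared by the constant region Iglc1 and the segment Iglv1 (1424931_s_at). It read 11.20, 11.86 and 11.96 in the CD133 low fraction against 6.93, 8.06 and 8.36 in the CD133 high fraction, a difference of −3.89 (SE 0.40, adjusted p = 0.0277), or 14.8-fold lower. Probe set 1447918_x_at of Iglv1 read 11.86, 12.54 and 12.47 against 7.36, 9.42 and 9.47, and 1430523_s_at of the same segment read 12.19, 12.67 and 12.55 against 8.02, 10.13 and 9.85. Their differences of −3.54 and −3.14 did not pass (limma, adjusted p = 0.104 and 0.119). The last, 1427292_at, read 7.88, 8.46 and 8.04 against 6.97, 7.09 and 6.99 (difference −1.11, adjusted p = 0.140). In all 4 every CD133 high array lay below every CD133 low array, against 10.5% of all probe sets. The median difference was −3.34, beside −2.52 in the heavy chain locus and −2.89 in the kappa locus. Differences between loci were not tested.

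CD133 high replicate 1 had the least immunoglobulin signal. It was the lowest of the 3 CD133 high arrays in 48 of the 55 probe sets, 87.3%, against 37.4% of all probe sets. Taken against the CD133 low mean, the median over the members was −3.34 on replicate 1, −2.33 on replicate 2 and −2.40 on replicate 3, while over all probe sets the medians were 0.02, 0.06 and −0.02. The lambda probe sets had medians of −4.60, −2.61 and −2.72 and the kappa V probe sets −3.96, −2.44 and −2.49. Replicate 1 was also the CD133 high array whose hybridisation controls, at 10.38, and Gapdh 3′ to middle difference, at −0.13, were like those of the CD133 low arrays. With those hybridisation controls entered as covariate, 28 of the 55 were called lower and 0 higher, beside 61 and 8 of all probe sets. At an unadjusted p under 0.05, 46 were lower and 0 higher. The controls were high only on CD133 high replicates 2 and 3, so this fit compares mainly replicate 1 with the CD133 low arrays. It is therefore not an adjustment separate from the choice of arrays.

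**Figure D3:**
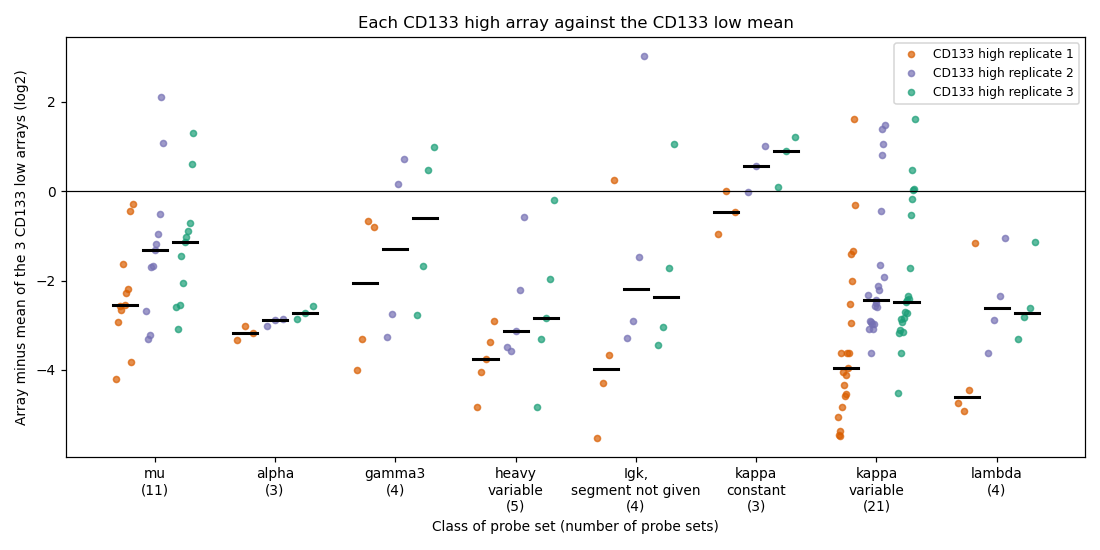
Each CD133 high array minus the mean of the 3 CD133 low arrays, on the log2 scale, for every immunoglobulin probe set by class (number of probe sets in brackets). Points are probe sets, colours are the 3 CD133 high arrays, and black bars are medians. The medians of CD133 high replicate 1 are the lowest of the 3 in every class, and the 3 alpha probe sets are the tightest class.

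The difference also varied with the position on the array scale. The highest value of any probe set on the 3 CD133 low arrays was 14.04, 14.01 and 14.08. Of the 55 members, 7 lay within 1 of it on all CD133 low arrays, and their median difference was −1.49. Of these 0 were called, with 6 lower and 0 higher at an unadjusted limma p under 0.05. The other 48 had a median of −2.93 with 13 called. Over all probe sets 0.167% were called lower, and 7.9% were lower at that unadjusted p. By mean CD133 low value, the median difference was −0.58 for 17 probe sets below 10, −3.41 for 15 from 10 to 12, −3.16 for 12 from 12 to 13 and −1.67 for 11 above 13. How far a ceiling of the signal held the brightest differences down was not tested.

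**Figure D4:**
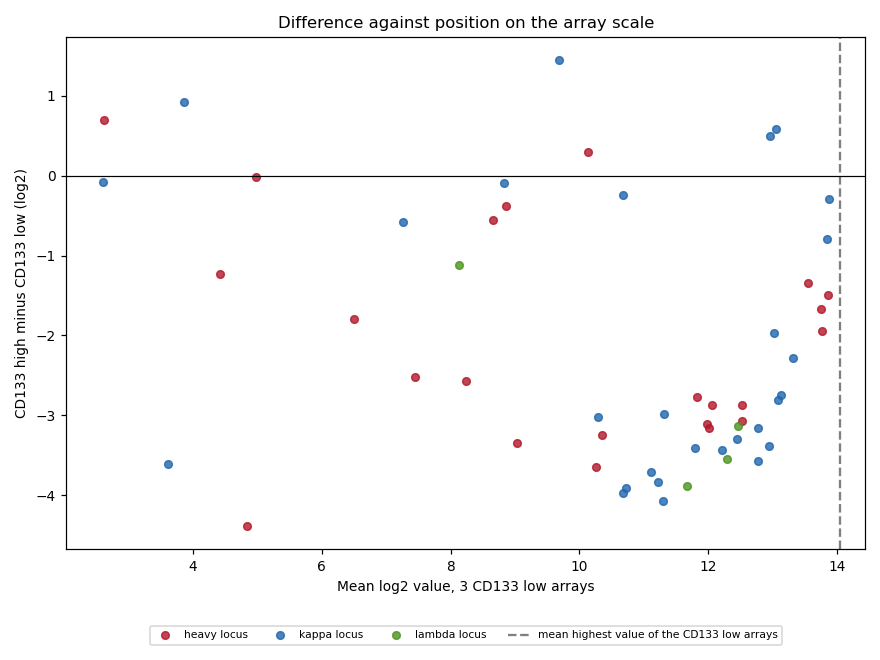
Difference between the fractions (CD133 high minus CD133 low, log2) against the mean log2 value of the 3 CD133 low arrays for the 55 immunoglobulin probe sets, coloured by locus. The dashed line is the mean of the highest values of the CD133 low arrays. Probe sets between 10 and 13 lie mostly near −3, and those close to the line lie nearer to 0.

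Genes of the B-cell receptor and of antibody secretion were set beside the immunoglobulins, each gene at its brightest probe set. By gene, 0.231% of 18193 were called lower and 0.022% higher. At an unadjusted p under 0.05, 3557 of all 45037 probe sets were lower and 3502 higher. Of 16 measured receptor chains and signalling genes 3 fell. Cd79b, a signalling chain of the receptor, read 9.45, 10.26 and 9.54 against 5.44, 5.73 and 5.79 (difference −4.10, SE 0.26, limma adjusted p = 0.0114). Its partner Cd79a fell by 3.06 (SE 0.23), and the adaptor Blnk, which passes the signal on, had a difference of −2.83 (SE 0.30, adjusted p = 0.0168 and 0.0293). The complement receptor Cr2, the inhibitory receptor Cd72 and the phospholipase Plcg2 had differences of −1.74, −0.89 and −1.34 that did not pass (limma, adjusted p = 0.110, 0.188 and 0.297). Members also lay the other way, among them Fcrla and the adaptor Bank1, chosen after their values were seen, with differences of 1.41 and 1.13 (limma, adjusted p = 0.319 and 0.440) and overlapping groups. The median over the list was −0.45, and at an unadjusted p under 0.05, 7 were lower and 1 was higher.

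Of 22 B-cell identity markers 4 fell. These were Fcmr, the IgM Fc receptor (9.36, 9.69 and 9.23 against 6.44, 6.56 and 6.26), Cxcr5, a receptor for follicle homing (−3.25), Ms4a1, which encodes CD20 (−2.81), and H2-Ob, a modulator of class II loading (−1.96), with adjusted p of 0.0114 to 0.0311. Fcrl1 and Tnfrsf13c, the receptor for the survival factor BAFF, had differences of −2.30 and −2.24 (limma, adjusted p = 0.0695 and 0.0721). Not all markers shared this: Pax5, the B-cell commitment factor, read 6.86, 6.80 and 6.36 against 6.40, 7.36 and 6.47. Cd40 and Cd74, chosen after their values were seen, had all CD133 high arrays above all CD133 low arrays. Their differences of 0.40 and 0.29 did not pass (limma, adjusted p = 0.327 and 0.434). Of the 22 markers, 17 had a negative difference. The median over the list was −0.89, and at an unadjusted p under 0.05, 14 were lower and 0 higher. Leaving out any single array other than CD133 high replicate 1 left 0 of the receptor genes and 0 of the identity markers called, and leaving out that one gave 8 and 13 lower, 3 and 1 higher, beside 11.8% and 9.5% of all probe sets called in each direction.

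Of 18 plasma cell and secretion genes 0 passed across the array in limma, although 12 were lower and 0 higher at an unadjusted p under 0.05 and all 18 had a negative difference (median −1.19). Without CD133 high replicate 1, 13 of them were called lower, beside 11.8% of all probe sets. Mzb1, a chaperone-like protein that aids antibody assembly, read 12.02, 12.46 and 12.22 against 8.22, 10.15 and 9.53 (difference −2.93, SE 0.46, adjusted p = 0.101). Jchain, the joining chain of secreted IgM and IgA, read 13.35, 13.57 and 13.67 against 11.28, 13.07 and 12.97 (difference −1.09, SE 0.47, adjusted p = 0.325), with replicate 1 far below the other arrays. The endoplasmic reticulum factor Derl3, the transcription factor Irf4 and the surface receptor Slamf7 had differences of −2.58, −1.77 and −2.17 (limma, adjusted p = 0.0737, 0.0699 and 0.0742). Pou2af1, a coactivator of immunoglobulin genes, belongs to the B-cell identity list and is not in these plasma cell counts. It read 11.50, 11.70 and 11.66 against 7.62, 9.98 and 9.48 (difference −2.60, SE 0.57, limma adjusted p = 0.212). Xbp1 and Sdc1, which plasma cells share with epithelium, differed by −0.07 and −0.09. Prdm1 and Tnfrsf17, also of the plasma cell list, each differed by −0.12 with overlapping groups (limma, adjusted p = 0.752 and 0.849).

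**Figure D5:**
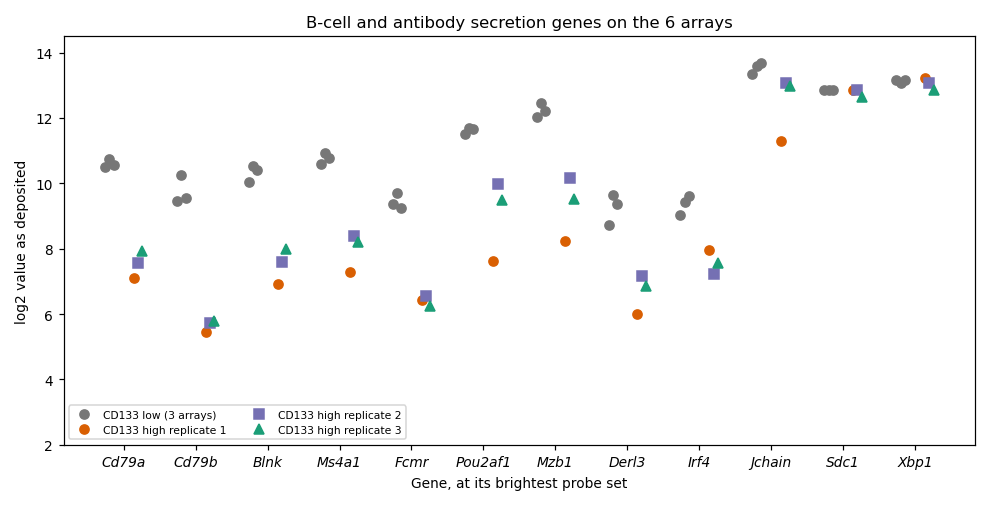
Log2 values as deposited of 12 B-cell and antibody secretion genes, each at its brightest probe set, on the 3 CD133 low arrays (grey) and the 3 CD133 high arrays (colours and shapes). From Cd79a to Irf4 all CD133 high points lie below all CD133 low points. Jchain is lowest on CD133 high replicate 1, at 11.28, and the points of Sdc1 and Xbp1 lie close together. The genes shown are a selection. Of the B-cell receptor and identity lists, 10 of 16 and 17 of 22 genes had a negative difference. Bank1 (1.13) and Fcrla (1.41) are among those not shown that went the other way.

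Genes of recombination, class switching and the surrogate light chain (16 measured) gave 0 calls in limma, with 1 lower and 0 higher at an unadjusted p under 0.05 and a median difference of −0.06. Over all 45037 probe sets, 3557 were lower and 3502 higher at that unadjusted p. The smallest p of the list was that of Vpreb3, a chain associated with immature receptors (−1.25, limma, adjusted p = 0.164). Among 14 receptors and carriers of immunoglobulins 1 fell, Fcmr, which is also a B-cell marker, and at an unadjusted p under 0.05, 3 were lower and 2 higher, with a median of −0.20. The IgE receptor chain Fcer1a and the IgG receptor Fcgr1 had differences of −1.20 and −0.56, and a further IgE receptor chain, Ms4a2, one of 1.36, with no overlap of the groups (limma, adjusted p = 0.297 for each). The differences of Fcrla and of the intracellular antibody receptor Trim21 were 1.41 and 0.50, with overlapping groups.

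Some markers of other cells were also lower in the CD133 high fraction. Of 15 T-cell markers 6 fell, beside 0.231% of all genes called lower, among them Cd5 (−2.30), Cd8b1 (−2.42) and Cd3e (−2.34). The median over the list was −1.68, and 13 of the 15 had a negative difference. The exceptions were Cd4, dim on all arrays, and Cd8a, at 0.44 and 0.31 with overlapping groups. Cd247 and Tcra also overlapped, at −0.25 and −0.18. None of the 6 was called once any array other than CD133 high replicate 1 was left out, or with the hybridisation controls as covariate, and without replicate 1, 11 were called lower and 1 higher, beside 11.8% and 9.5% of all probe sets. The log2 of their summed level was 13.30 to 13.47 on the CD133 low arrays and 11.42 to 12.03 on the CD133 high arrays. Of 13 macrophage, 10 neutrophil, 14 pan-leukocyte, 13 epithelial, 12 fibroblast and endothelial and 4 red blood cell genes 0 passed in limma, with 1, 0, 6, 1, 0 and 1 lower and 2, 0, 0, 1, 0 and 0 higher at an unadjusted p under 0.05. Beside these counts, 3557 of all 45037 probe sets were lower and 3502 higher at that unadjusted p. In the same order, the median differences of the lists were 0.06, −0.17, −0.73, −0.13, 0.17 and 0.23. The log2 summed levels of the CD133 low and CD133 high arrays were 16.10 to 16.17 and 16.10 to 16.23 for macrophage markers, 15.19 to 15.43 and 14.32 to 15.84 for neutrophil markers, 16.16 to 16.18 and 15.41 to 16.22 for pan-leukocyte genes, and 14.43 to 14.63 and 14.31 to 14.75 for epithelial genes. For fibroblast and endothelial genes they were 15.68 to 15.81 and 15.73 to 16.16, and for red blood cell genes 7.78 to 8.16 and 7.33 to 7.64. No listed gene was at 0 on all arrays. Among these, the red blood cell ranges did not overlap, but the 4 genes were split. Alas2 differed by −1.22 with all CD133 high arrays below, and Hba-a1 by 1.23 with all CD133 high arrays above. Slc4a1 and Epb42 had overlapping groups, at −0.35 and 0.82. The pan-leukocyte level on CD133 high replicates 2 and 3, at 15.54 and 15.41, lay below all CD133 low arrays while that on replicate 1 lay above them. What part other cells had in the immunoglobulin differences was not tested.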

How the data were processed

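Total RNA of the sorted fractions was hybridised as biotinylated cRNA to Affymetrix mouse arrays, per the labels' protocols. The range and spread of the deposited numbers are those of log2 signals, 1 per probe set. The authors' summarisation and normalisation were not stated in anything used here. With 45101 rows the table is that of a larger design than the one named in the labels. Each array has 1158 to 1297 values of exactly 0. Gene symbols came from the platform annotation; all 27 member symbols matched the gene table of RefSeq (GRCm38.p6) by Entrez gene.

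The 64 control probe sets were left out. CD133 high was set against CD133 low in limma 3.58.1 (R 4.3.3) on the log2 values as deposited, with a variance trend, no covariate, two-sided, and Benjamini-Hochberg adjustment over all 45037 probe sets at a threshold of 0.05. Differences are CD133 high minus CD133 low. Errors are standard errors of the model or SDs over 3 arrays, whose number limits the precision. No exact permutation test was run, since with 3 arrays in each fraction its smallest two-sided p is 0.1. The steps were tested on simulated data.

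Replicates were numbered in accession order, and no 2 arrays shared more than 702 equal values. Members, lists and tests were chosen with earlier results of these data known. Named are all constant region members, all members past the threshold, per locus the 6 with the highest mean, the 6 with the smallest p and the 3 with the highest signed difference, up to 6 genes of each list by p, and Prom1; remaining members, and Pax5, Jchain, Pou2af1, Xbp1, Sdc1, Cdh1, Epcam and Ptprc, were added for completeness after their values were seen. Esrp1, Cd4, Cd8a, Cd247, Tcra, Prdm1 and Tnfrsf17 were likewise added after their values were seen. For a gene in a list its brightest single-gene probe set was used. No set test was made.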

Additional observations from a re-analysis of the deposited data

How the results depend on the processing

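Of the 55 immunoglobulin probe sets, 44 had no sign change under any alternative, among them all 13 that were called. With 13 called lower as reported, the number was 24 with equal array medians, 27 and 26 without the dimmest 25% and 50% of probe sets, 27 with a robust trend, 39 with array weights, 28 with the hybridisation controls as covariate, and 21 at a threshold of 0.1. It was 4 with values below 5 set to 5, 2 without a variance trend, 0 without moderation and 5 of 28 without probe sets of shared sequence, where fewer members remained. Over all probe sets, lower calls moved too, from 75 to 152 with equal medians, 180 and 164 with the dim filters, 172, 2675, 61 and 170 with the robust trend, array weights, covariate and higher threshold, and 31, 6, 0 and 53 under the 4 settings with fewer calls. Equal medians, both dim filters, the robust trend, array weights and the covariate kept all 13 called. Leaving out 1 array gave 0 to 41 lower and up to 3 higher, beside 0 to 5326 lower and up to 4277 higher over all probe sets. CD133 high replicate 1 alone against the CD133 low arrays, an alternative chosen after seeing the data, gave 0 in either direction, with 48 lower and 1 higher at an unadjusted p under 0.05; the lone array is assumed to vary like the others. Where a setting moved a value and nothing is said of why, the cause was not tested.

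The median difference of the heavy chain locus was −1.94 with the floor of 5, −1.51 without shared sequence and −1.94 without probe sets of several genes. Without shared sequence the lambda, mu and gamma3 medians were −1.11, −1.08 and −0.01, and no alpha probe set remained. With replicate 1 alone the lambda, mu, alpha and gamma3 medians were −4.60, −2.56, −3.18 and −2.05. The gamma3 median was −2.57 without the dimmest 50%, and the mu median ran from −1.84 to −1.23 when 1 array was left out, the latter without CD133 high replicate 1.

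Sign changes touched only members that were not called. With array weights they were Igkv19-93 (0.15 for 1427855_at, 0.37 for 1427856_a_at), Igkv6-15 (0.28), Ighm 1427869_at (0.70) and Ighg3 1447998_at (0.17, and 0.14 with the floor). With the covariate they were Ighg3 1427503_at (−0.74), Igkv1-117 (1.94), Igkv5-39 (−0.29) and Igkc 1452417_x_at (−0.35). With replicate 1 alone they were Ighm 1426196_at (−0.28), Ighg3 1427503_at (−0.80), Igkv1-117 (1.63), Igkv5-39 (−0.32) and Igkc 1452417_x_at (−0.47). Leaving out 1 array gave −0.08 to 1.29 for Ighm 1426196_at, −0.49 to 0.04 for Igkc 1427455_x_at, −0.04 to 0.85 for Ighg3 1427503_at, −0.94 to 0.84 for Igkv1-117, −1.56 to 0.61 and −0.77 to 0.65 for Igkv19-93, −0.66 to 0.54 for Igkv6-15, −1.61 to 1.36 for Ighm 1427869_at and −0.26 to 0.32 for Ighg3 1447998_at.

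Of the lists, B-cell receptor genes had 1 lower with the floor, 1 without a trend, 7 lower and 2 higher with array weights, and 0 without moderation or with replicate 1 alone. B-cell identity markers had 7 with either dim filter, 2 with the floor, 1 without a trend, 13 with array weights and 0 without moderation or with replicate 1 alone. Plasma cell genes had 4 with equal medians, equal 75th percentiles or a threshold of 0.1, 6 with either dim filter or a robust trend, 12 with array weights and 2 with the covariate. T-cell markers had 1 with the floor, 11 with array weights and 0 without a trend, without moderation, with the covariate or with replicate 1 alone. Receptors and carriers of immunoglobulins had 3 lower and 2 higher with array weights, and 0 without moderation or with replicate 1 alone. Array weights, which called 2675 probe sets lower and 2133 higher, also gave 1 lower diversification gene, 2 lower and 1 higher macrophage, 9 lower leukocyte, 2 higher epithelial, 1 higher fibroblast or endothelial and 1 lower red blood cell gene. Leaving out any array but CD133 high replicate 1 left 0 called in every list, beside 0 or 1 lower and 0 higher over all probe sets. Without that replicate, 11.8% of all probe sets were called lower and 9.5% higher. There the receptor genes had 8 lower and 3 higher, identity markers 13 and 1, and plasma cell genes 13 lower. Diversification genes had 3 and 3, immunoglobulin receptors 5 and 3, and T-cell markers 11 and 1. Macrophage genes had 3 and 2, neutrophil genes 5 lower, and leukocyte genes 9 and 1. Epithelial genes had 2 and 3, fibroblast and endothelial genes 2 and 2, and red blood cell genes 1 lower.

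No paired analysis was possible because the labels number no replicates. The number of arrays limits what these values can show.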
